A study of Homo sapiens with 4 samples.

Results

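This report covers 47 genes that build the kinetochore and the centromere, run the spindle checkpoint or guard sister chromatid cohesion in mitosis. They were taken by name from a list of symbols drawn up with earlier results of these data known. All 47 were found among the 61852 gene IDs measured. RNA was sequenced from H1299, an established cell line from a human lung carcinoma, labelled p53-/-. The cells of 2 libraries expressed wild-type p53 (p53WT) and those of 2 expressed CASM34, a p53 mutant by the design text of a series titled for synonymous mutations found in cancer. All 4 libraries share the p53-null line and the growth medium, and the labels name no treatment. How the p53 forms were introduced, and whether the cells are clones or pools, is not given in the sources used here. Cells without p53 were not analysed here, and every fold change is CASM34 over p53WT.

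The kinetochore is the protein machine that ties a chromosome's centromere to spindle microtubules. Its inner layer, the constitutive centromere network, sits on nucleosomes that hold the histone variant CENP-A, and its outer layer, the KMN network, binds the microtubules. Kinetochores without microtubules recruit the spindle checkpoint proteins, which hold back the anaphase-promoting complex (APC/C) until every chromosome is attached. Many of these genes are transcribed mainly in late S phase to mitosis, and p53 is known to lower such genes indirectly, through the CDK inhibitor p21 and the DREAM repressor complex. DREAM and the activating MuvB complexes reach promoters through a short element, the CHR, while the factor NF-Y binds CCAAT boxes.

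The promoters of these genes are shown first, because the CHR and CCAAT boxes are known elements of cell cycle promoters. Whether the fold changes go with these elements was not tested. RefSeq promoter windows on GRCh38.p14, from 250 bases before to 50 bases after a start site, were at hand for 39 of the 47 genes. Windows for BUB3, CENPH, CENPL, CENPM, KNL1, KNTC1, MIS18A and TTK were not used here. The letters TTTGAA, the canonical CHR, occurred on either strand in 17 of the 39 (43.6%), against 18.2% of all 27305 genes with a window and 13.4% of the 11442 tested among them. The letters CCAAT occurred on either strand in 25 of the 39 (64.1%), against 39.7% and 42.6%. The 2 motifs overlapped in 0 member windows. These are matches of letters, described without a test, and a window without one says nothing about the factor. Stretches of 30 bases around the match nearest the start site are printed below in the direction of the gene. Capitals mark TTTGAA or its complement TTCAAA in the first 6 and CCAAT or its complement ATTGG in the last 3.
NDC80: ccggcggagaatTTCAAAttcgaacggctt
NUF2: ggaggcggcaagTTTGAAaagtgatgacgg
SPC25: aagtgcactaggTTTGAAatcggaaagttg
BUB1B: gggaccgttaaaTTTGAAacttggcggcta
MAD2L1: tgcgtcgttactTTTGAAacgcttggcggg
CENPA: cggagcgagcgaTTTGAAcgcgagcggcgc
BUB1: ctgccgccgccaCCAATgggcaggcgccct
SGO2: tcgcaggacccgATTGGctgatggggcaac
ZWILCH: taccgctctcacATTGGggcgggatgtggg
The first 3 belong to the Ndc80 complex, the next 2 to the checkpoint and CENPA to the centromeric nucleosome. BUB1, SGO2, ZWILCH and NDC80 are the 4 genes that fell. The other printed genes were picked after the matches were seen. The stretches lie at chr18:2571542-2571571 (plus strand) for NDC80, chr1:163321958-163321987 (plus) for NUF2 and chr2:168890416-168890445 (minus) for SPC25. They lie at chr15:40161034-40161063 (plus) for BUB1B, chr4:120066807-120066836 (minus) for MAD2L1 and chr2:26786026-26786055 (plus) for CENPA. Those with CCAAT lie at chr2:110678100-110678129 (minus) for BUB1, chr2:200526130-200526159 (plus) for SGO2 and chr15:66505316-66505345 (plus) for ZWILCH. The CCAAT match began 54 bases before the start site in BUB1 and at base 3 of the transcript in ZWILCH. In SGO2 it began at base 1 of the transcript or 65 bases before it, depending on the start site used. In 13 of the 39 genes with a window the nearest TTTGAA match began within 50 bases of the start site. The matching share over all promoters was not counted, so the 13 are a description alone. In NDC80 and in SPC25 the TTTGAA match began 3 bases before the start site, and in NUF2 it began at base 17 of the transcript. The SPC24 window, the remaining Ndc80 subunit, held no TTTGAA and 3 CCAAT matches. The BUB1, SGO2 and ZWILCH windows held no TTTGAA either. The windows of the 4 genes that fell overlap annotated exons, including exons of RPL4 for ZWILCH and of METTL4 for NDC80. The ZWILCH, SGO2 and NDC80 stretches lie inside the GENCODE gene spans given below, as the RefSeq start sites used here differ from the GENCODE gene starts.

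Library totals ran from 18086983 to 26906095 estimated counts, and 15965 genes were high enough to test, all 47 members among them. The lowest count of any member in any library was 140. The p21 gene CDKN1A was at 389 and 413 CPM (counts relative to the TMM-scaled library size) in p53WT and 517 and 531 CPM in CASM34. It was called higher (log2 fold change 0.38, SE 0.05, edgeR adjusted p = 0.00274), also with an offset for GC content and length (edgeR adjusted p = 0.0323). It passed in DESeq2 (adjusted p = 5.0e-12) but not with an offset for effective length (edgeR adjusted p = 0.175) or in limma (adjusted p = 0.260). Its log2 fold change was 0.38 in these last fits also, and they called 3 and 0 of all genes tested higher. Any link of CDKN1A to the levels of the 47 was not tested. Of the lung carcinoma markers, the keratins KRT8 and KRT18 were high (from 501 to 1034 CPM), while KRT19, EPCAM, NKX2-1 and NAPSA were at most 0.657 CPM. Leukocyte markers summed to 0.164 to 0.309 CPM, with PTPRC and CD3E at 0, and fibroblast and endothelial markers to 2.99 to 3.94 CPM. Nothing in the labels ties the 2 libraries of each group to separate cultures. The p-values therefore rest on library-to-library spread alone, and that spread may be technical.

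Of the 47 genes 4 fell in CASM34 relative to p53WT, 0 rose and 43 did not pass (edgeR quasi-likelihood test, p adjusted over all genes by Benjamini-Hochberg, threshold 0.05). Over all genes tested 0.345% were called lower and 1.61% higher. The 4 that fell were BUB1, ZWILCH, NDC80 and SGO2, which fell by 14.2% to 15.0%. All 4 calls ended with an offset for GC content and length, with one for effective length, in limma and without p53WT replicate 1, where 0 of the 47 passed. The fitted log2 fold change lay below 0 for 45 of 47 members, against 50.2% of all genes tested. The share over all genes varied with GC content, and the members had a median GC content of 41.8%. Under 40% GC 13 of 13 members lay below 0, against 76.9% of genes tested. From 40 to under 45% it was 19 of 19 members against 69.0%. From 45 to under 50% it was 7 of 7 against 61.4%, and from 50 to under 55% 5 of 5 against 46.4%. At 55% and above it was 1 of 3 against 19.3%. The median log2 fold change was -0.14 over the members and -0.0005 over all genes tested, and its range over the members was -0.30 to 0.10. In bulk RNA, fewer cells in mitosis and less RNA per cell cannot be told apart.

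The counts per library, from which the fold changes were fitted, show the order in each library. The 47 genes together took 3398 and 3370 CPM in p53WT and 3091 and 3084 CPM in CASM34, so the sum dropped by 8.77%. Every CASM34 library lay below every p53WT library for 35 members and above for 2, and the groups overlapped for 10. Over all genes tested these orders held for 23.4% and 24.5%. Under 40% GC the lower order held for 11 of 13 members and 1008 of 2384 genes tested. From 40 to under 45% GC it held for 12 of 19 members and 1179 of 3290 genes. Between the 2 libraries of a group a member differed by a median of 0.06 (p53WT) and 0.07 (CASM34) on the log2 scale. The fold change was larger than both of these replicate differences for 30 of the 47 (63.8%) and for 35.8% of all genes tested. At an unadjusted edgeR p under 0.05, 24 of the 47 members were lower, against 6.81% of all genes tested.

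**Figure D1:**
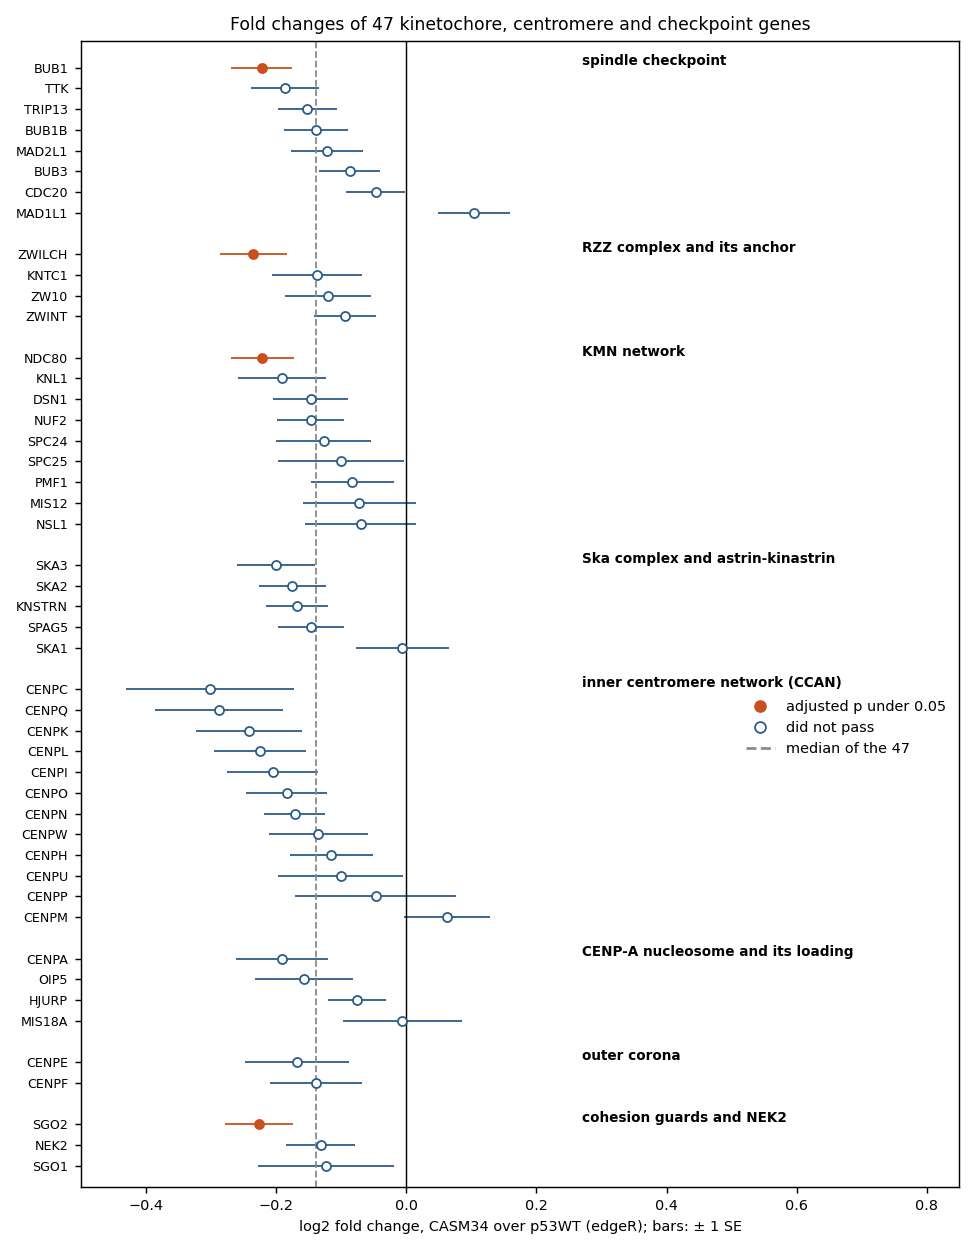
Log2 fold change of each of the 47 genes (points, x axis, CASM34 over p53WT, bars ± 1 SE from edgeR), ordered within role groups; filled orange points passed at adjusted p under 0.05. Of the points 45 lie left of 0, the dashed line marks the median of -0.14, and the 4 filled points are BUB1, ZWILCH, NDC80 and SGO2.

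Among the 8 spindle checkpoint genes 1 fell, 0 rose and 7 lay below 0 (median log2 fold change -0.13). BUB1 encodes a kinase that docks on KNL1 and marks centromeric chromatin (ENSG00000169679.15, GRCh38 chromosome 2, 110637698 to 110678114, minus strand, GENCODE 29). It was at 215 and 206 CPM in p53WT and 184 and 177 CPM in CASM34. Both CASM34 libraries were below both p53WT libraries, and BUB1 fell by 14.3% (log2 fold change -0.22, SE 0.05, edgeR adjusted p = 0.0306). TTK, the kinase also called MPS1 that starts checkpoint signalling, was at 88.6 and 92.5 CPM in p53WT and 77.4 and 82.2 CPM in CASM34. The TTK groups did not overlap, but the gene did not pass (log2 fold change -0.19, SE 0.05, edgeR adjusted p = 0.0859). TTK lay at -0.02 with an offset for effective length, since its effective length was 2578 and 2633 bases in p53WT and 2267 and 2354 in CASM34.

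The remaining checkpoint genes moved less. TRIP13, an ATPase that remodels MAD2, was at 139 CPM in both p53WT libraries and 127 and 122 CPM in CASM34 (log2 fold change -0.15, SE 0.05, edgeR adjusted p = 0.110). BUB1B and MAD2L1, which encode BubR1 and MAD2 of the mitotic checkpoint complex, lay at -0.14 and -0.12, short of the threshold (edgeR adjusted p = 0.161 and 0.279). CDC20, the APC/C activator that this complex captures, was the most abundant of the 47 per length, at a mean of 348 TPM, the unit that scales by transcript length. Its level was 389 and 394 CPM in p53WT and 384 and 374 CPM in CASM34, a log2 fold change of -0.05 (SE 0.04). BUB3, the partner of both Bub kinases, lay at -0.09. MAD1L1, which encodes the MAD1 anchor of MAD2, was the member with the highest fold change, at 56.1 and 58.7 CPM in p53WT and 63.2 and 60.1 CPM in CASM34. Its log2 fold change of 0.10 (SE 0.06) did not pass (edgeR adjusted p = 0.360), its counts were fractional in all 4 libraries, and it lay at -0.09 with an offset for GC content and length.

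**Figure D2:**
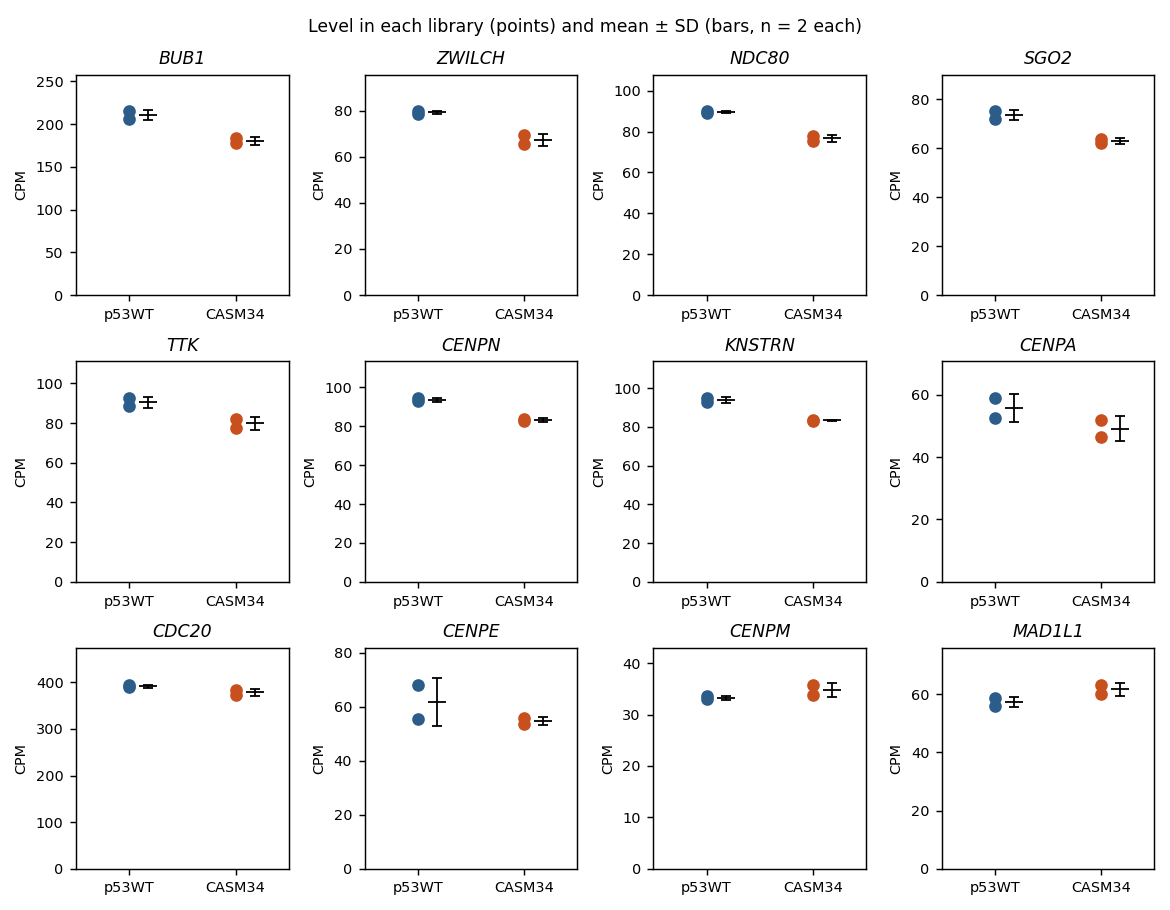
Level of 12 members in each library (points, y axis in CPM from 0) with the mean and SD of each group (bars, n = 2 each). In BUB1, ZWILCH, NDC80 and SGO2 both CASM34 points lie below both p53WT points, the points of CENPE overlap between groups, and those of CENPM and MAD1L1 are higher in CASM34.

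The Rod-Zw10-Zwilch (RZZ) complex carries dynein and MAD1 to unattached kinetochores, and ZWINT links it to KNL1. Of these 4 genes 1 fell, 0 rose and all 4 lay below 0. ZWILCH (ENSG00000174442.12, chromosome 15, 66504959 to 66550128, plus strand) was at 79.8 and 78.9 CPM in p53WT and 65.7 and 69.4 CPM in CASM34. The groups did not overlap, and ZWILCH fell by 15.0% (log2 fold change -0.24, SE 0.05, edgeR adjusted p = 0.0373). RSEM gave ZWILCH fractional counts in each of the 4 libraries, so some of its reads also fit other gene models. ZW10 and ZWINT lay at -0.12 and -0.09, short of the threshold (edgeR adjusted p = 0.379 and 0.334).

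KNTC1, which encodes the Rod subunit, gave opposite orders by count and by length-scaled level. It was at 57.3 and 50.6 CPM in p53WT and 50.8 and 46.9 CPM in CASM34, groups that overlap (log2 fold change -0.14, SE 0.07, edgeR adjusted p = 0.334). In TPM it was at 15.0 and 12.9 in p53WT and 26.4 and 21.7 in CASM34. The effective length that RSEM gave for KNTC1, which follows its estimate of the transcript mix, was 4581 and 4640 bases in p53WT and 2268 and 2558 bases in CASM34. With the effective length as an offset the log2 fold change was 0.79 and did not pass (edgeR adjusted p = 0.182). Whether the transcripts of KNTC1 differ was not tested. CENPI, an inner centromere gene, showed a smaller shift of the same kind, with effective lengths of 3950 and 3622 bases in p53WT and 2985 and 3001 in CASM34. CENPI lay at -0.21 by count but at 0.12 in both length-scaled fits (effective length offset, limma on TPM), and it passed in none of them.

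The KMN network holds the KNL1 scaffold, the Mis12 complex (DSN1, MIS12, NSL1 and PMF1) and the microtubule-binding Ndc80 complex (NDC80, NUF2, SPC24 and SPC25). Of these 9 genes 1 fell, 0 rose and all 9 lay below 0 (median log2 fold change -0.13, range -0.22 to -0.07). NDC80 (ENSG00000080986.13, chromosome 18, 2571511 to 2616635, plus strand) was at 90.0 and 89.1 CPM in p53WT and 78.0 and 75.4 CPM in CASM34. It fell by 14.2%, with groups that did not overlap (log2 fold change -0.22, SE 0.05, edgeR adjusted p = 0.0379). NUF2, the partner of NDC80 in the microtubule-binding head, was at 65.9 and 67.0 CPM in p53WT and 60.9 and 59.1 CPM in CASM34. NUF2 did not pass (log2 fold change -0.15, SE 0.05, edgeR adjusted p = 0.166). SPC24 and SPC25, the pair at the other end of the complex, lay at -0.13 and -0.10, short of the threshold (edgeR adjusted p = 0.401 and 0.649). Per length, the subunits of this equimolar complex stood at mean TPM values of 55.1 for NDC80, 49.5 for NUF2, 27.7 for SPC24 and 24.9 for SPC25. The head pair was thus above the SPC24 and SPC25 pair in every library in TPM.

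KNL1, the scaffold that TTK phosphorylates to recruit BUB1, was at 74.3 and 65.1 CPM in p53WT and 58.4 and 63.8 CPM in CASM34. The groups did not overlap, though the p53WT libraries differed more from each other than the nearest libraries of the groups did, and KNL1 did not pass (log2 fold change -0.19, SE 0.07, edgeR adjusted p = 0.172). DSN1 lay at -0.15, PMF1 at -0.08, MIS12 at -0.07 and NSL1 at -0.07, and none of these 4 passed (edgeR adjusted p from 0.210 to 0.731). The PMF1 counts were fractional in all 4 libraries.

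The Ska complex holds the Ndc80 complex on shortening microtubules, and astrin (SPAG5) with kinastrin (KNSTRN) marks attached kinetochores. None of these 5 genes passed by edgeR, and all 5 lay below 0 (median log2 fold change -0.17). An unadjusted edgeR p under 0.05 was reached by 4 of them (80.0%), against 17.1% of all genes tested in either direction. KNSTRN was at 92.7 and 94.9 CPM in p53WT and 83.7 and 83.3 CPM in CASM34 (log2 fold change -0.17, SE 0.05, edgeR adjusted p = 0.0897). SKA2 was at 106 CPM in both p53WT libraries and 90.2 and 98.4 CPM in CASM34 (log2 fold change -0.17, SE 0.05, edgeR adjusted p = 0.105). SKA3 was at 46.5 and 47.2 CPM in p53WT and 41.8 and 39.6 CPM in CASM34 (log2 fold change -0.20, SE 0.06, edgeR adjusted p = 0.108). In KNSTRN, SKA2 and SKA3 the groups did not overlap. SPAG5 lay at -0.15 (edgeR adjusted p = 0.160). SKA1, a subunit beside SKA2 and SKA3, was at 38.4 and 43.2 CPM in p53WT and 39.2 and 42.4 CPM in CASM34, with overlapping groups and a log2 fold change of -0.01 (SE 0.07).

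The 12 genes of the inner centromere network included the lowest fold changes of the 47, but none passed by edgeR. In all 7 (58.3%) had an unadjusted edgeR p under 0.05, against 17.1% of all genes tested in either direction. Of the 12 genes 11 lay below 0, and the median log2 fold change was -0.18. CENPN, which reads the CENP-A nucleosome, was at 92.9 and 94.4 CPM in p53WT and 83.8 and 82.5 CPM in CASM34 (log2 fold change -0.17, SE 0.05, edgeR adjusted p = 0.0843). CENPL, its partner, was at 34.9 and 32.3 CPM in p53WT and 28.7 and 28.6 CPM in CASM34 (log2 fold change -0.23, SE 0.07, edgeR adjusted p = 0.124). CENPO was at 89.4 CPM in both p53WT libraries and 84.0 and 72.7 CPM in CASM34 (log2 fold change -0.18, SE 0.06, edgeR adjusted p = 0.149). The CENPN, CENPL and CENPO groups did not overlap, and the counts of these 3 genes were fractional in all 4 libraries.

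The other inner centromere genes had SEs of 0.06 to 0.13. CENPC, the pillar that joins the CENP-A nucleosome to the Mis12 complex, had the lowest log2 fold change of all members, -0.30 (SE 0.13, edgeR adjusted p = 0.252), and the lowest level per length, a mean of 3.32 TPM. Its values were 10.4 and 9.40 CPM in p53WT and 8.34 and 7.67 CPM in CASM34. CENPQ lay at -0.29 and CENPK at -0.24, and their groups did not overlap (edgeR adjusted p = 0.153 and 0.150). CENPW lay at -0.14, CENPH at -0.12, CENPU at -0.10 and CENPP at -0.05. CENPM was the exception in the network, at 33.0 and 33.5 CPM in p53WT and 33.9 and 35.8 CPM in CASM34, a log2 fold change of 0.06 (SE 0.07) that did not pass.

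CENP-A is the histone variant that specifies the centromere, HJURP is its chaperone, and MIS18A and OIP5 (Mis18-beta) prime chromatin for its loading. None of these 4 genes passed by edgeR, and all 4 lay below 0. An unadjusted edgeR p under 0.05 was reached by 1 of them (25.0%), against 17.1% of all genes tested in either direction. CENPA was at 52.5 and 58.9 CPM in p53WT and 46.3 and 51.8 CPM in CASM34, so the nearest libraries of the groups almost met (log2 fold change -0.19, SE 0.07, edgeR adjusted p = 0.186). OIP5 lay at -0.16 and HJURP at -0.08 (edgeR adjusted p = 0.312 and 0.423). MIS18A was at 27.9 and 34.7 CPM in p53WT and 30.7 and 32.0 CPM in CASM34, and it lay at -0.01 (SE 0.09).

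CENPE, a kinesin that moves chromosomes to the spindle equator, and CENPF, a large protein of the outer corona, differed more within p53WT than between the groups. CENPE was at 68.0 and 55.5 CPM in p53WT and 55.7 and 53.7 CPM in CASM34. CENPF was at 175 and 146 CPM in p53WT and 151 and 140 CPM in CASM34. In both genes p53WT replicate 1 stood above the other 3 libraries, and the groups overlapped because p53WT replicate 2 lay below CASM34 replicate 1. The log2 fold changes of -0.17 (SE 0.08) and -0.14 (SE 0.07) did not pass (edgeR adjusted p = 0.303 and 0.342). Without p53WT replicate 1 they were -0.02 and -0.01, and without p53WT replicate 2 they were -0.31 and -0.26. With KNL1 these are the longest messages of the set, at effective lengths of 6057 to 8324 bases, and KNL1 was also higher in p53WT replicate 1 than in replicate 2. The part of transcript length in this was not tested.

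Shugoshins shield centromeric cohesin from early removal, and NEK2 is a centrosome kinase of the same expression window. Of these 3 genes 1 fell, 0 rose and all 3 lay below 0. SGO2 (ENSG00000163535.18, chromosome 2, 200510008 to 200583782, plus strand) was at 75.1 and 72.0 CPM in p53WT and 62.1 and 63.7 CPM in CASM34. It fell by 14.5%, with groups that did not overlap (log2 fold change -0.23, SE 0.05, edgeR adjusted p = 0.0440). NEK2 was at 58.3 and 58.5 CPM in p53WT and 52.6 and 54.0 CPM in CASM34 (log2 fold change -0.13, SE 0.05, edgeR adjusted p = 0.226). SGO1, the mitotic shugoshin, had lower counts and overlapping groups and lay at -0.12 (SE 0.10, edgeR adjusted p = 0.598).

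**Figure D3:**
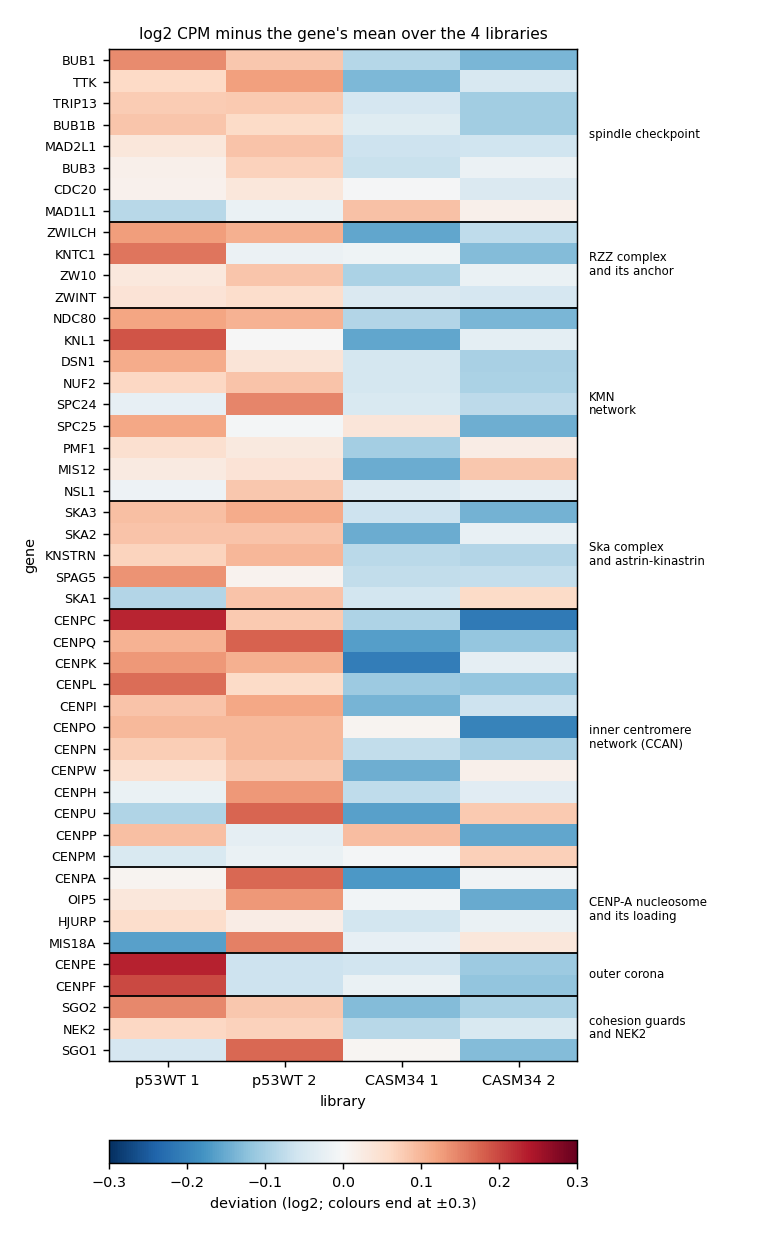
Deviation of log2 CPM from each gene's mean over the 4 libraries (colour, rows are the 47 genes by role group, columns the libraries). Both p53WT columns are mostly above the mean (38 and 39 genes) and both CASM34 columns mostly below it (42 and 39 genes), while CENPE and CENPF stand out in p53WT 1.

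Other genes of the same machinery are given without a test of their difference from the 47. Of 13 further kinetochore and centromere genes and 20 genes of the APC/C, its regulators and its substrates, all 33 were tested, 0 fell and 0 rose by edgeR. At an unadjusted p under 0.05 in either direction edgeR gave 13 of the 33 (39.4%), against 17.1% of all genes tested, DESeq2 called none at an adjusted p under 0.05, and 21 of the 33 lay below 0 (median log2 fold change -0.04). With the offset for GC content and length the median of the 33 was -0.08, and that of the 13 kinetochore and centromere genes went from -0.0005 to -0.12, where the 47 had -0.10. Securin (PTTG1), which APC/C destroys to start anaphase, was at 157 and 154 CPM in p53WT and 135 and 138 CPM in CASM34 (log2 fold change -0.19, SE 0.04, edgeR adjusted p = 0.0528). FBXO5, which encodes the APC/C inhibitor EMI1, was at 72.4 and 74.5 CPM in p53WT and 64.2 and 62.7 CPM in CASM34 (log2 fold change -0.21, SE 0.05, edgeR adjusted p = 0.0568). CLASP2, a microtubule plus-end protein, lay at -0.19 and ITGB3BP (CENP-R) at -0.29 (edgeR adjusted p = 0.0966 and 0.147). In contrast CENPT and CENPB, picked out with their values known, were at 0.16 and 0.10 with CASM34 above p53WT in every library (edgeR adjusted p = 0.229 and 0.276). They moved to 0.03 and -0.17 with the offset for GC content and length. Over the 33 genes 12 lay above 0 without this offset and 11 with it. ANAPC2 went from 0.17 to -0.04, while ANAPC10 and ANAPC16 went from 0.18 and 0.07 to 0.29 and 0.11.

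A pair of neighbouring lists of proliferation genes are set beside the 47 without a test of the difference. Of 12 chromosomal passenger and cytokinesis genes 3 fell, 0 rose and 11 lay below 0, with a median log2 fold change of -0.15. The 3 were RACGAP1, CEP55 and ECT2, at -0.25, -0.22 and -0.19 (edgeR adjusted p = 0.0150, 0.0383 and 0.0475). Of 16 replication licensing genes 0 fell and 0 rose by edgeR, 15 lay below 0 and the median was -0.10. An unadjusted edgeR p under 0.05 was reached by 7 of the 16 (43.8%), against 17.1% of all genes tested in either direction. With the GC and length offset the medians were -0.14 for both of these lists and -0.10 for the 47. The licensing median thus went from above to below that of the 47, while the passenger and cytokinesis median was below it in both fits. With this offset RACGAP1 and MCM2 passed (edgeR adjusted p = 0.0405 and 0.0380), and none of the 47 did.

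GC content moved with the fold changes across all genes, and the 47 are mostly poor in G and C. The median GC content of the longest transcript was 41.8% for the members and 48.7% for all genes tested. For each rise of 10 percentage points in GC, log2 levels shifted by -0.0549 and -0.0458 in the p53WT libraries and by 0.0660 and 0.0347 in the CASM34 libraries. The only members above 0, MAD1L1 and CENPM, were those richest in G and C, at 62.6% and 61.4%, and CDC20 followed at 57.9%. Over the 47 genes, which share libraries and are not independent, the Spearman correlation of fold change with GC content was 0.48, and over 15664 tested genes it was 0.46. Below 40% GC the median was -0.17 over 13 members and -0.08 over 2384 tested genes. From 40 to under 45% GC it was -0.14 over 19 members and -0.05 over 3290 genes. From 45 to under 50% it was -0.16 over 7 members and -0.03 over 2758 genes, and from 50 to under 55% it was -0.13 over 5 members and 0.01 over 2495 genes. At 55% and above it was 0.06 over 3 members, of which 1 lay below 0, and 0.12 over 4737 genes.

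Taking out the trend of every library with GC content and length left the direction and ended the calls. The GC slopes differ in sign between the groups, so this offset also takes out any group difference that goes with GC content. Technical and other sources of the trend cannot be told apart in these libraries. With the offset 44 of 47 members lay below 0, against 56.2% of all genes tested. The median log2 fold change was -0.10, beside -0.02 over all genes tested. None of the 47 passed by edgeR, and 0.113% of all genes were called lower. At an unadjusted p under 0.05 in either direction there were 19 members (40.4%), against 13.1% of all genes tested. BUB1 lay at -0.19, ZWILCH at -0.17, NDC80 at -0.16 and SGO2 at -0.14 (edgeR adjusted p = 0.0729, 0.117, 0.136 and 0.201). MAD1L1 and CENPM moved to -0.09 and -0.08, and CDC20 to -0.15. CENPO then had the lowest value, -0.25. By role group the medians ran from -0.08 for the cohesion guards and NEK2 to -0.14 for the inner centromere network and for the Ska and astrin genes.

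**Figure D4:**
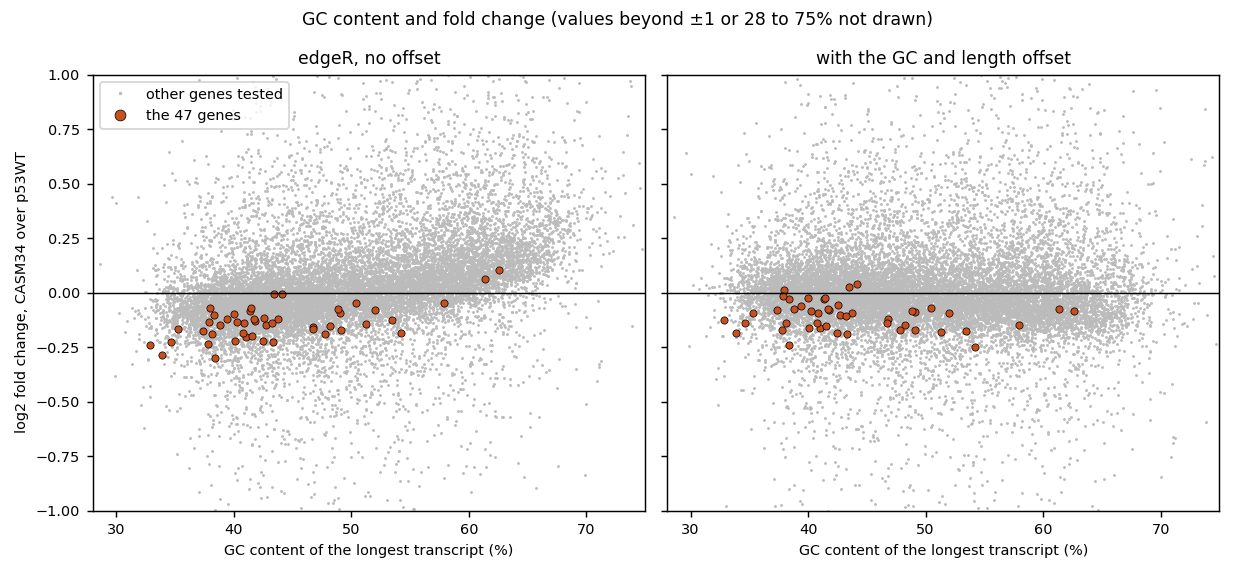
Log2 fold change (y axis, CASM34 over p53WT) against GC content of the longest transcript (x axis, %) for the 47 genes (orange) and other tested genes (grey), without an offset (left) and with the GC and length offset (right). On the left the grey cloud rises with GC content and only MAD1L1 and CENPM lie above 0; on the right 44 of the 47 lie below 0 with a median of -0.10.

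The 4 calls depended on the libraries and on the tool, while their fold changes were below 0 in every alternative run. Without p53WT replicate 1, 0 of the 47 genes fell, while 0.0833% of all genes tested did. Without p53WT replicate 2 only CENPE fell, against 0.122% of all genes. Without CASM34 replicate 1 there were 3 (CENPO, BUB1 and NDC80), against 0.839%, and without CASM34 replicate 2 there were 8, against 1.62%. Scaling by median of ratios gave the same 4 genes, against 0.363%. Without a filter on low counts these 4 and TTK, CENPO, SKA2 and KNL1 fell, against 0.898%. A replicate block gave 14, against 2.26%. In DESeq2 only BUB1 passed (adjusted p = 0.00628), against 0.332% of all genes, and NDC80, ZWILCH and SGO2 were at adjusted p = 0.0828, 0.0849 and 0.119. Scaled by effective length, and in limma on log2(TPM + 1), none of the 47 passed, against 0% of all genes called lower. At an unadjusted p under 0.05 in either direction these fits gave 15 (31.9%) and 13 (27.7%) members, against 11.9% and 11.4% of all genes. Below 0 lay 39 (83.0%) and 38 (80.9%) members, against 50.3% and 49.5% of all genes, and both medians were -0.14.

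**Figure D5:**
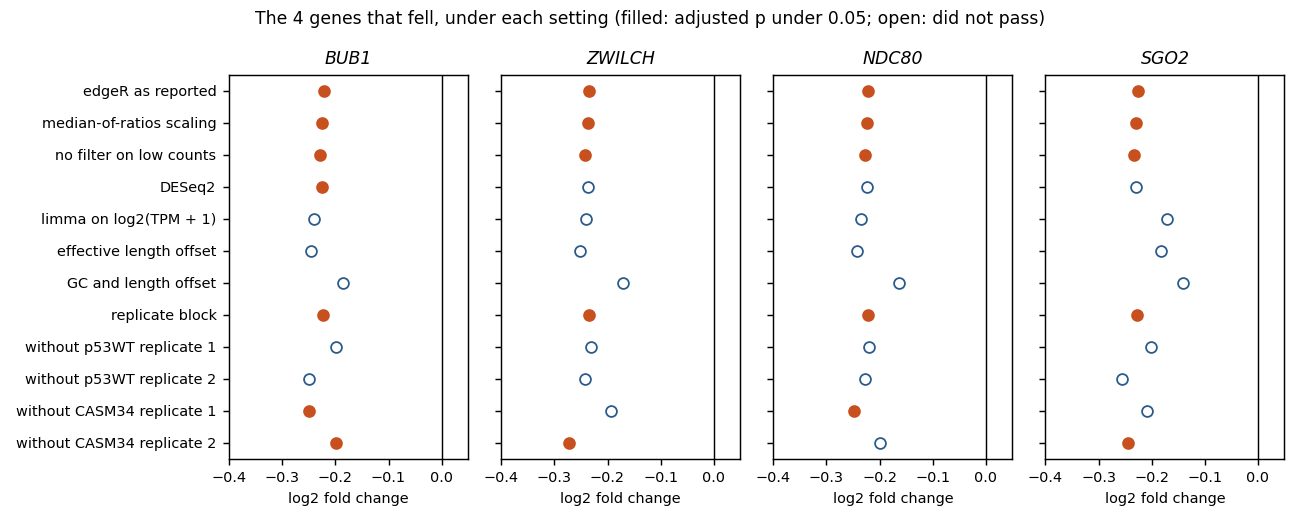
Log2 fold change (x axis, CASM34 over p53WT) of BUB1, ZWILCH, NDC80 and SGO2 under each setting (rows); filled points passed at adjusted p under 0.05. All points lie left of 0, from -0.27 to -0.14, and which points are filled changes with the offset, the tool and the library left out.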

How the data were processed

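The submitters' processing notes name GRCh38, RSEM, STAR and Trim Galore. Tool versions, strandedness and gene annotation are each not given in the sources used here. Per the file headers, each deposited table gives RSEM expected counts (estimated by the authors' run, 8.63% to 9.26% of genes not whole at a tolerance of 0.001), TPM and effective lengths. Groups follow the sample titles. Gene symbols matched 61803 of 61852 IDs by ID without version; coordinates are GENCODE 29 on GRCh38, 1-based.

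Expected counts were rounded and tested with edgeR 4.0.16 under R 4.3.3 (genes kept by filterByExpr at 10 counts; TMM scaling; a model with group alone). Fold changes are CASM34 over p53WT, SE was taken from the F statistic, and p-values were adjusted over 15965 genes. CPM uses TMM factors. Libraries of a group differed beyond counting error (chi-square per degree of freedom 3.89 and 3.94), so none was counted as a duplicate.

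Alternatives were median-of-ratios scaling, no filter, DESeq2 1.42.0, limma 3.58.1 on log2(TPM + 1), offsets for effective length and for GC content and length (natural splines, 5 degrees of freedom), a replicate block, leaving out each library, and an adjusted p under 0.1. Genes without a GC value took the median GC content in that offset. The tests were checked on simulated data. The members and lists were chosen with earlier results of these data known. The text names members that passed, the 3 lowest adjusted p of each role group, the largest rise and, of the 2 lists of other pathway genes, the 2 lowest adjusted p each; other members are given by value. Some results are not reported here.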

Additional observations from a re-analysis of the deposited data

How the results depend on the processing

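Of the 47 genes 4 fell and 0 rose, and 0 rose in every alternative run. The number that fell was 4 with median-of-ratios scaling, 8 with no filter on low counts, 1 in DESeq2, 0 in limma on log2(TPM + 1), with the effective length offset and with the GC and length offset, 7 at an adjusted p under 0.1, and 0 to 8 with a library left out. The median log2 fold change moved to -0.10 with the GC and length offset and ran from -0.16 to -0.14 with a library left out. Of the 33 other pathway genes 0 fell, but 1 did with median-of-ratios scaling, 3 with no filter, 4 at an adjusted p under 0.1 and 0 to 3 with a library left out. Over all genes 312 were called, against 777 with no filter, 213 in DESeq2, 0 in limma on log2(TPM + 1), 3 with the effective length offset, 45 with the GC and length offset, 712 at an adjusted p under 0.1 and 109 to 919 with a library left out. With the replicate block 14 of the 47 fell, among them all 4 of the main test, 7 of the 33 fell, and 1159 genes were called. The titles do not say what a shared number means, and deviations of same-numbered libraries had a correlation of 0.04 across genes, so the block is not used as a pairing. KNTC1 turned to 0.74 in limma on log2(TPM + 1) and to 0.79 with the effective length offset, where its effective lengths differ between the groups, and MAD1L1 to -0.086 with the GC and length offset. CENPI, BUB3, NSL1, SKA1 and CENPP were above 0 in both of these length-scaled fits (0.01 to 0.12), and CENPM was at -0.08 with the GC and length offset. The causes of the other changes were not tested. With 2 libraries a group and member SEs of 0.04 to 0.13, differences near the median of the set could not be called singly.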
